A study of Mus musculus with 9 samples.

Results

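Osteocytes are the cells that remain buried in bone once the matrix around them has mineralized. They are known for secreted signals that act on the rest of the skeleton and on the kidney: sclerostin, encoded by Sost, inhibits Wnt signaling in osteoblasts, and FGF23 lowers phosphate reabsorption in the kidney. Dmp1, Mepe and Phex act on mineralization and on phosphate handling, and Pdpn marks the change from osteoblast to osteocyte.

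The 7 osteocyte genes Sost, Dmp1, Mepe, Phex, Fgf23, Pdpn and Ptprz1 were taken by symbol from the 18272 genes of the expression table, and each was found once. They were measured by RNA sequencing of the tibia in 9 female C57BL/6J mice, bought at 10 to 11 weeks of age, with 1 library per mouse. The NGT group (normal glucose tolerance, 3 mice) received citrate vehicle and later saline. The T1D group (type 1 diabetes, 3 mice) received streptozotocin, which destroys the pancreatic beta cells that make insulin, and later saline. The Lira group (3 mice) received the same streptozotocin injection and then liraglutide, a GLP-1 receptor agonist, at 0.6 mg/kg per day. The treatment label of Lira mice 1 and 2 gives 8 weeks and that of Lira mouse 3 gives 9 weeks. T1D is here a chemically induced insulin deficiency. The paper does not say whether the tibia was used whole or with its marrow. Genes of marrow, vessel, nerve and cartilage cells were read beside those of bone, at levels that differed between mice. Muscle was to be removed before freezing, but 10 skeletal muscle genes still took 8.38% to 22.9% of each library.

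The members lie on 5 chromosomes. In the gene numbering of NCBI they are Sost (74499, chromosome 11), Dmp1 (13406, chromosome 5), Mepe (94111, chromosome 5), Phex (18675, chromosome X), Fgf23 (64654, chromosome 6), Pdpn (14726, chromosome 4) and Ptprz1 (19283, chromosome 6). RefSeq promoter windows, from 250 bases before to 50 bases after an annotated start, were matched for all 7 members in 8 windows of the mouse build GRCm38.p6, since Dmp1 has 2 annotated starts. The submitters' processing notes name an older build, mm9, so these coordinates belong to the RefSeq windows and not to the expression table. Stretches from 100 bases before the start to the 20th base from it are shown for the members of the 2 pairs that varied together across the mice, Sost with Mepe and Dmp1 with Phex. Capitals mark TTTAAA, a palindromic A/T-rich hexamer of the kind found in TATA-type promoters, and TGTGGT, the core letters bound by Runx factors, which include the osteoblast regulator Runx2.
Sost, chr11:101966996-101967115, minus strand: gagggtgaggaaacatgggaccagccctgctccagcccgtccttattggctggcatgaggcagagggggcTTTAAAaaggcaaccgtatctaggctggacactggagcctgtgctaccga
Mepe, chr5:104325229-104325348, plus strand: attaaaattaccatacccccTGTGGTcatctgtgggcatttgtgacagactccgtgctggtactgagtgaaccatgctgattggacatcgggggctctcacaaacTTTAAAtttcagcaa
Dmp1, second start, chr5:104202517-104202636, plus strand: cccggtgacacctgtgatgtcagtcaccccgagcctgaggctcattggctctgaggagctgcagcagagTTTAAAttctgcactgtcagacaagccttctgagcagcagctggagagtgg
Phex, chrX:157415267-157415386, minus strand: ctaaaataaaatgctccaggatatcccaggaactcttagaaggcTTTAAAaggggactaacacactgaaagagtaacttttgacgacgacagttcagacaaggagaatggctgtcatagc

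TTTAAA was present in the windows of 6 of the 7 members, the exception being Ptprz1, while 13.2% of all 32851 promoter windows of the same length hold it. Its first base lay 30 bases before the start of Sost, 31 before the second start of Dmp1, 27 before that of Fgf23, 49 before that of Pdpn and 56 before that of Phex. In Mepe it lay 5 bases after the start. A TTTAAA beginning 60 to 20 bases before the start was thus found in 5 members and in 2.30% of all windows. TGTGGT, searched on both strands, was found in Mepe, 80 bases before the start on the sense strand and 118 before it on the antisense strand, and in Dmp1, 164 bases before the second start on the antisense strand. It is held by 16.8% of all windows. TATAAA, searched on both strands, was found in the Mepe window alone, 173 bases before the start on the antisense strand, and is held by 13.6% of all windows. These motifs were chosen after the sequences had been seen, and the range of 60 to 20 bases holds every TTTAAA found before a start. A member counted if any of its windows matched, while the percentages are per window. The counts are therefore a description only, and a match describes the letters of a window and not a bound site.

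Most osteocyte genes were read at low depth. Library totals ran from 13086373 to 16528394 counts, and the 7 members together took 104 counts in NGT mouse 2, 121 in Lira mouse 2 and up to 805 in T1D mouse 1. On the length-normalized FPKM scale the order of mean levels over the 9 libraries was Pdpn at 5.30 ± 5.66 FPKM (SD, n = 9), Dmp1 at 1.59 ± 1.24, Ptprz1 at 0.472 ± 0.325, Phex at 0.449 ± 0.296, Mepe at 0.394 ± 0.376, Fgf23 at 0.307 ± 0.409 and Sost at 0.262 ± 0.207. Pdpn was above Dmp1 in 8 of 9 libraries (adjusted p = 0.0469 over the 6 neighboring pairs, two-sided exact sign-flip permutation test on log2(FPKM + 0.1)). The neighboring pairs were set by the order of these same values, and the adjustment covers these pairs only. The p-value therefore describes the order and does not establish it. Dmp1 was above Ptprz1 in 7 of 9 libraries without passing the threshold (adjusted p = 0.0938 in the same exact test). The neighbors from Ptprz1 down to Sost did not differ beyond their spread, with adjusted p from 0.633 to 0.879 in the exact test.

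Genes were tested when 3 or more libraries held 10 or more counts of them, which left 13960. Among these, the mean normalized read count (CPM, scaled to library size) of Sost over the 9 libraries stood at percentile 0.630. That of Mepe stood at 2.35 and that of Fgf23 at 4.01. Ptprz1, Phex and Dmp1 stood at percentiles 15.6, 16.2 and 22.7, and Pdpn at 36.7. These percentiles describe how many reads support a gene and are not levels per length. All 7 members passed this filter, but Sost, Mepe and Fgf23 did so with exactly 3 libraries and with none from NGT. For these genes a place among the tested genes was therefore itself tied to their level in T1D and Lira.

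The same libraries were low for most osteocyte genes. In NGT mouse 2 no read was assigned to Sost or Mepe, and in Lira mouse 2 there was 1 count of each. These libraries were also the lowest for the osteoblast lineage: Ibsp, a mineralized-matrix sialoprotein, stood at 0.155 CPM in NGT mouse 2 and 3.97 CPM in Lira mouse 2 against 32.8 to 270 CPM elsewhere, and Bglap, which encodes osteocalcin, at 0 and 1.01 CPM against 4.94 to 86.5 CPM. In NGT mouse 2, 3 of the 15 osteoblast lineage genes (Bglap, Sp7 and Dlx3) were at 0, and in Lira mouse 2 1 of 15 (Dlx3). In bulk tissue, fewer cells of a type and less RNA per cell cannot be told apart. Another 2 libraries stood apart in breadth, since T1D mouse 1 had 476 genes and Lira mouse 3 had 441 genes at more than 2 times the level of every other library, against 2 to 83 genes in the rest.

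**Figure D1:**
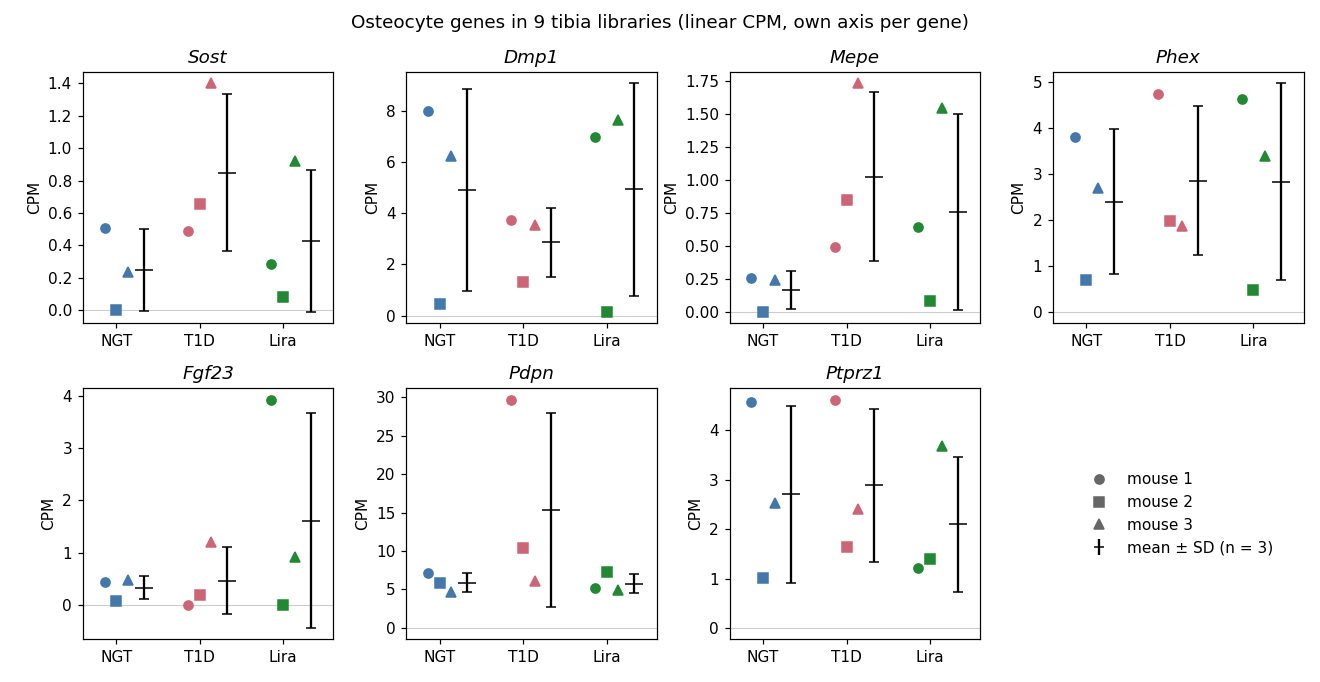
CPM of each osteocyte gene (linear y axis, its own range per gene) in the NGT, T1D and Lira groups (x axis), 1 point per mouse with the marker shape giving the mouse number, and the mean ± SD of 3 mice as a bar. The square of NGT mouse 2 lies at 0 for Sost and Mepe and at 0.464 CPM for Dmp1, and the only group pair without overlap is T1D above NGT for Mepe.

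Sost, the Wnt inhibitor, was read at 0.508, 0 and 0.237 CPM in NGT mice 1 to 3, at 0.489, 0.655 and 1.40 CPM in T1D, and at 0.286, 0.0779 and 0.918 CPM in Lira. These levels rest on 8, 0 and 3 counts in NGT, 9, 10 and 21 in T1D and 4, 1 and 16 in Lira. The NGT and T1D groups touched in CPM, where NGT mouse 1 exceeded T1D mouse 1, but not in raw counts. The mean was 0.248 ± 0.254 CPM (SD, n = 3) in NGT, 0.848 ± 0.485 in T1D and 0.427 ± 0.438 in Lira. The fitted log2 fold change of T1D over NGT was 1.69 (SE 1.07, edgeR quasi-likelihood test, adjusted p = 0.977), and that of Lira over T1D was -0.93 (SE 1.01, adjusted p = 0.978 in edgeR). On the log2(CPM + 1) scale of limma the first was 0.55 (SE 0.30, limma adjusted p = 0.971). A limit of 3 counts corresponds to 0.163 to 0.237 CPM across the libraries, so at this depth the NGT level of Sost could not be separated from the limit in 2 of 3 mice.

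Dmp1 and Mepe belong to the SIBLING family of acidic phosphoproteins of mineralized matrix, and the family's genes lie side by side on chromosome 5, in the RefSeq order Dspp, Dmp1, Ibsp, Mepe and Spp1. Per length, Dspp, which is known from dentin, had a mean of 0.010 FPKM over the 9 libraries, Mepe 0.394 and Dmp1 1.59, while Ibsp had 38.6 FPKM and Spp1, which encodes osteopontin, 83.5 FPKM. Within a gene, the counts ran from 0 to 27 for Mepe, 2 to 133 for Dmp1, 2 to 4964 for Ibsp and 54 to 4629 for Spp1. The flanking genes Sparcl1 and Pkd2 had a narrower range over the same libraries, with 2055 to 2786 and 264 to 706 counts.

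Dmp1 stood at 8.00, 0.464 and 6.25 CPM in NGT, 3.75, 1.31 and 3.53 CPM in T1D and 6.99, 0.156 and 7.63 CPM in Lira. The highest library, NGT mouse 1, was 51.3 times the lowest, Lira mouse 2, and the groups overlapped. The log2 fold change was -0.77 (SE 1.18) for T1D over NGT, 0.78 (SE 1.18) for Lira over T1D and 0.01 (SE 1.16) for Lira over NGT. Leaving out 1 mouse moved the first from -1.31 (without NGT mouse 2) to -0.22 (without NGT mouse 1), and the second from 0.32 (without Lira mouse 3) to 1.35 (without Lira mouse 2). With the replicate number as a block they were -0.14 (SE 0.74) and 0.03 (SE 0.92). The range within NGT and within Lira was wider than any difference between group means.

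Mepe was read at 0.254, 0 and 0.237 CPM in NGT, 0.489, 0.851 and 1.73 CPM in T1D and 0.642, 0.0779 and 1.55 CPM in Lira, from 4, 0 and 3, then 9, 13 and 26, then 9, 1 and 27 counts. Every T1D mouse lay above every NGT mouse, while the Lira mice reached from below NGT mouse 3 to just under T1D mouse 3. The mean was 0.164 ± 0.142 CPM (SD, n = 3) in NGT, 1.02 ± 0.640 in T1D and 0.757 ± 0.743 in Lira. The log2 fold change of T1D over NGT was 2.56 (SE 1.12, edgeR adjusted p = 0.977). In limma on log2(CPM + 1), where 1 CPM is added and low levels move less, it was 0.76 (SE 0.35, limma adjusted p = 0.971). The exact permutation test gave p = 0.1, the smallest that 3 against 3 mice allow. Lira over NGT was 2.15 (SE 1.12, edgeR adjusted p = 0.999). The lower group of the first comparison was at or next to the 3-count limit in all 3 mice, and its size rests on 7 counts in all.

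Phex is the endopeptidase whose loss causes X-linked hypophosphatemia, and Fgf23 is the hormone that is raised in that disease. Phex stood at 3.81, 0.696 and 2.69 CPM in NGT, 4.73, 1.96 and 1.87 CPM in T1D and 4.64, 0.467 and 3.39 CPM in Lira. The group means lay close together, at 2.40 ± 1.58, 2.85 ± 1.63 and 2.83 ± 2.14 CPM (SD, n = 3 each), and the log2 fold changes were 0.25 (SE 0.84) for T1D over NGT, -0.01 (SE 0.83) for Lira over T1D and 0.24 (SE 0.84) for Lira over NGT. Taken as 2 SE on either side, the first of these differences reaches from -1.42 to 1.92, so changes of up to about that size were not detectable here.

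Fgf23 was carried by single libraries. It was read at 0.444, 0.0773 and 0.475 CPM in NGT, 0, 0.196 and 1.20 CPM in T1D and 3.93, 0 and 0.918 CPM in Lira, and 55 of its 106 counts came from Lira mouse 1. Both T1D mouse 1 and Lira mouse 2 had no count, so the T1D and Lira groups each reached down to 0. The log2 fold change was 0.44 (SE 1.61) for T1D over NGT, 1.80 (SE 1.53) for Lira over T1D and 2.24 (SE 1.58) for Lira over NGT, with edgeR adjusted p of 0.978 or more. In limma on log2(CPM + 1) these were 0.07, 0.61 and 0.68 (SE 0.55 each). The deposited FPKM of Fgf23 did not follow its counts evenly at this level (0.10 FPKM for 1 count in NGT mouse 2 and 0.20 FPKM for 7 counts in NGT mouse 1), and its place in the order of levels is accordingly loose.

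Pdpn, the membrane glycoprotein podoplanin, had the highest FPKM of the members. It stood at 7.17, 5.80 and 4.67 CPM in NGT, 29.7, 10.3 and 6.07 CPM in T1D and 5.14, 7.24 and 4.94 CPM in Lira. T1D mouse 1 alone lay far above the rest, and T1D mouse 3 lay within the range of both other groups. The log2 fold change was 1.38 (SE 0.53, edgeR adjusted p = 0.977) for T1D over NGT, -1.41 (SE 0.53, edgeR adjusted p = 0.978) for Lira over T1D and -0.03 (SE 0.53) for Lira over NGT. The first and second of these share the T1D mice. Without T1D mouse 1 they were 0.48 (SE 0.34, edgeR adjusted p = 1.00) and -0.51 (SE 0.34, edgeR adjusted p = 0.998).

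Ptprz1, a receptor-type tyrosine phosphatase that binds pleiotrophin and is also strong in glia, stood at 4.57, 1.01 and 2.53 CPM in NGT, 4.62, 1.64 and 2.40 CPM in T1D and 1.21, 1.40 and 3.67 CPM in Lira. The groups overlapped, and Lira mice 1 and 2 lay below every T1D mouse but above NGT mouse 2. The log2 fold change was 0.09 (SE 0.66) for T1D over NGT, -0.46 (SE 0.67) for Lira over T1D and -0.36 (SE 0.67) for Lira over NGT.

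Taking the comparison of T1D with NGT over the members, 6 of 7 had a higher mean and 1, Dmp1, a lower one, beside 52.1% of all tested genes with a higher value. The median log2 fold change was 0.44 for the members, which is the value of Fgf23, and 0.02 for all tested genes. Sost, Mepe and Fgf23 entered the test with no NGT library at 10 counts, so their direction against NGT is tied in part to the filter, and the count and the median are a description only. Without T1D mouse 1, 4 of 7 members were higher and 3 lower, and without both T1D mouse 1 and the same-numbered NGT mouse 6 were higher and 1 lower (median 0.64). By same-numbered mice, a pairing read from these data alone, the summed CPM of the members was higher in T1D in 3 of 3 pairs. The sums were 43.8 against 24.7, 17.0 against 8.04 and 18.2 against 17.1 CPM. Pdpn alone held 29.7 against 7.17, 10.3 against 5.80 and 6.07 against 4.67 CPM of them. These sums therefore do not describe the 7 members evenly. Singly, Mepe and Pdpn were higher in 3 of 3 pairs, Sost, Phex, Fgf23 and Ptprz1 in 2 and Dmp1 in 1. None of the 7 members passed an adjusted p under 0.05 with a fold change over 2, and the share of all tested genes that did was 0%. At an unadjusted p under 0.05, 2 members (Mepe and Pdpn) were higher and 0 lower, beside 2.36% of all genes higher and 3.95% in either direction. Mepe did not reach that level in limma, with library size in place of TMM or without any single NGT mouse, and Pdpn did not in limma, with only the compared groups, or without T1D mouse 1, NGT mouse 2 or NGT mouse 3, so nothing is read from this count. DESeq2 with its default filtering gave no adjusted p for any member in this comparison, and without that filtering, a setting added after seeing the data, it called 0 of 7 members, the lowest adjusted p among them being 0.698 for Pdpn in DESeq2. At an unadjusted p under 0.05 there were 697 genes in DESeq2 against 552 in edgeR. The groups did not overlap for 1 member, Mepe, and for 3.52% of all genes in the same direction (8.6% in either direction).

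In the comparison of Lira with T1D, 2 members (Dmp1 and Fgf23) had a higher and 5 a lower mean, beside 55.3% of all genes with a higher value, and the median was -0.40 beside 0.04 for all genes. Without T1D mouse 1, 4 were higher and 3 lower, with a median of 0.06. None was called, and the share called among all genes was 0% in edgeR. At an unadjusted p under 0.05, 1 member, Pdpn, was lower, beside 1.78% of all genes lower and 3.33% in either direction. Pdpn did not reach that level in limma or with only the compared groups. Nor did it without T1D mouse 1, Lira mouse 1 or Lira mouse 3, so nothing is read from this count. In the comparison of Lira with NGT, 5 members had a higher and 2 a lower fitted value, beside 55.6% of all genes higher, and the median was 0.24 beside 0.04. Again none was called (0% of all genes), and 0 members had an unadjusted p under 0.05, beside 0.781% of all genes. No member separated the groups without overlap in either of these comparisons, where 7.13% and 4.27% of all genes did.

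**Figure D2:**
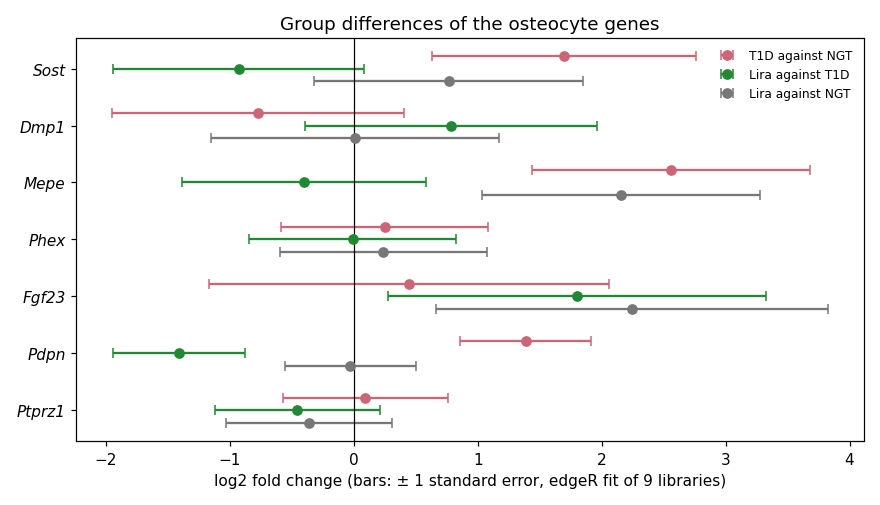
Log2 fold change of each osteocyte gene (x axis) with 1 standard error on either side, from the edgeR fit of all 9 libraries, for T1D against NGT, Lira against T1D and Lira against NGT (colors). The widest bars belong to Fgf23 (SE 1.61, 1.53 and 1.58) and the narrowest to Pdpn (SE 0.53).

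Across the 9 libraries the members formed 2 pairs that varied together. Sost and Mepe correlated at Pearson's r = 0.928 on log2(CPM + 1) (exact permutation p = 0.000333, adjusted p = 0.00700 over 21 pairs), with Spearman's rho = 0.933 (exact permutation p = 0.000750, adjusted p = 0.0157). Without T1D mouse 3 and NGT mouse 2, the libraries farthest from the median of Sost, r was 0.853, and on deviations from the group means it was 0.939. In both genes T1D mouse 3 and Lira mouse 3 were highest and NGT mouse 2 and Lira mouse 2 lowest.

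Dmp1 and Phex correlated at r = 0.888 (exact permutation p = 0.00225, adjusted p = 0.0236), with rho = 0.767 (exact permutation p = 0.0214, adjusted p = 0.225). Without Lira mouse 2 and NGT mouse 2, r was 0.589, so much of this relation rests on these libraries, and on deviations from the group means r was 0.922. None of the other 19 pairs passed the adjusted threshold for either coefficient. Of all 21 pairs, 17 had r above 0, with a median of 0.416, and the lowest was Fgf23 with Pdpn at -0.48. Sost and Dmp1, both markers of the mature cell, had r = 0.460 (exact permutation p = 0.212, adjusted p = 0.446). All members of a library share its RNA sample and its depth, and the part of the tissue composition in these relations was not tested.

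**Figure D3:**
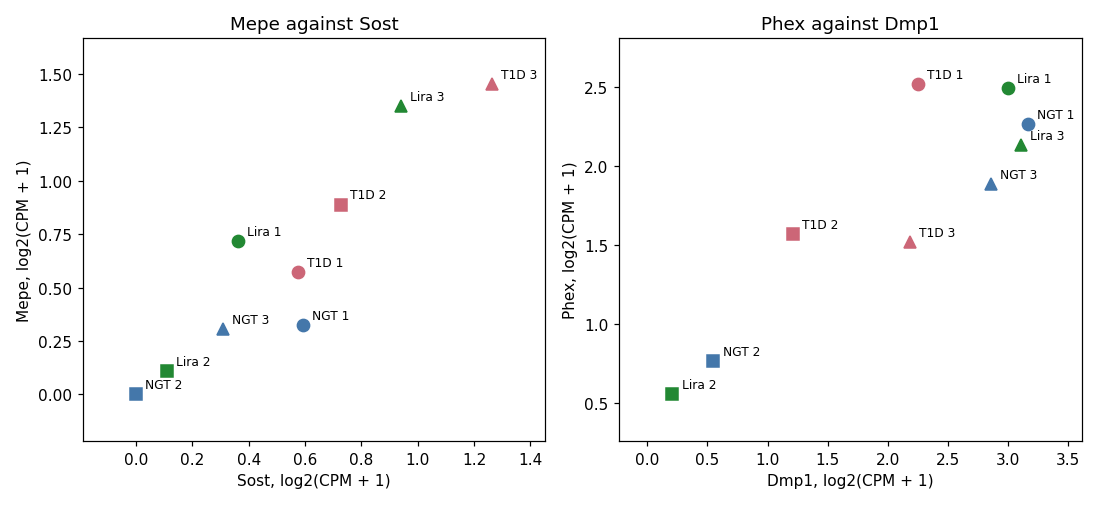
Mepe against Sost (left) and Phex against Dmp1 (right), both axes in log2(CPM + 1), 1 labelled point per mouse. The left panel forms a line from NGT mouse 2 at 0 to T1D mouse 3 (r = 0.928, n = 9), and in the right panel Lira mouse 2 and NGT mouse 2 stand apart at the lower left (r = 0.888 with them and 0.589 without).

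To compare members within a library, each was expressed as a log2 ratio to Dmp1, with 0.5 CPM added to both. The ratio of Sost to Dmp1 was -3.08, -0.95 and -3.20 in NGT, -2.10, -0.65 and -1.09 in T1D and -3.25, -0.18 and -2.52 in Lira. The ratio of Mepe to Dmp1 was -3.49, -0.95 and -3.20 in NGT, -2.10, -0.42 and -0.85 in T1D and -2.71, -0.18 and -1.99 in Lira. NGT mouse 2 and Lira mouse 2, where Dmp1 itself had 6 and 2 counts, had the highest ratio of their group for both genes, at a level set largely by the added 0.5 CPM. The means differed by 1.13 for Sost and 1.42 for Mepe between T1D and NGT (exact permutation p = 0.3 and 0.2, 3 mice a group, two-sided). In all 18 comparisons of a ratio the groups overlapped, and the exact permutation p ran from 0.2 to 1. Within same-numbered mice, the T1D mouse had the higher ratio in 3 of 3 pairs for Sost, Mepe and Phex (exact sign-flip permutation p = 0.25 each, the smallest that 3 pairs allow), with mean differences of 1.13, 1.42 and 0.58. For Fgf23, Pdpn and Ptprz1 it did so in 2 of 3 pairs (exact permutation p = 0.75, 0.5 and 0.5). No source links the same-numbered mice, so these pair counts and p-values hold only if the pairing read from the data does.

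Other genes of these pathways were grouped in lists. The values given for a list gene are log2 fold changes of T1D over NGT unless another comparison or CPM is named. Of the 13 genes that act on Sost or in the Wnt pathway it inhibits, 10 were tested, while Dkk1, Sostdc1 and Wnt1 fell below the filter. In T1D against NGT, 5 were higher and 5 lower, with a median log2 fold change of 0.02. An unadjusted p under 0.05 was reached by 2 genes. Mef2c, a transcription factor of the Sost enhancer that is also abundant in muscle, had a log2 fold change of -0.53 (SE 0.22, edgeR adjusted p = 0.977), and Lrp6, a Wnt co-receptor to which sclerostin binds, of -0.40 (SE 0.17, edgeR adjusted p = 0.977). Hdac5, also among the 3 most abundant genes here and a deacetylase that restrains Mef2c, differed by -0.04 (SE 0.23). In Lira against T1D, 7 were higher and 3 lower (median 0.16), and in Lira against NGT 4 and 6 (median -0.07), each with 0 at an unadjusted p under 0.05.

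Of the 12 genes of the phosphate and FGF23 axis, 10 were in the table and tested. There were 5 higher and 5 lower in T1D against NGT (median 0.04), 5 and 5 in Lira against T1D (median 0.02) and 6 and 4 in Lira against NGT (median 0.11), and none had an unadjusted p under 0.05. Xpr1, a phosphate exporter, differed by -0.09 (SE 0.39) between T1D and NGT, Fgfr1, a receptor for FGF23, by -0.14 (SE 0.30), and Slc20a2, a phosphate importer, by -0.33 (SE 0.31). These 3 genes had at least 948 counts in every library, so their narrow errors contrast with those of Fgf23 itself.

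Of 12 other genes enriched in osteocytes, 10 were tested. In T1D against NGT, 7 were higher and 3 lower with a median of 1.14, and 2 had an unadjusted p under 0.05. These were the matrix metalloproteinases Mmp13 at 3.21 (SE 1.39) and Mmp14 at 1.53 (SE 0.51), with edgeR adjusted p = 0.977 for both. The most abundant of the list beside them was Cd44, a hyaluronan receptor, at 1.51 (SE 1.01). In Lira against T1D, 2 were higher and 8 lower with a median of -1.02, and Mmp14 at -1.43 (SE 0.51) and the gap junction gene Gja1 at -0.91 (SE 0.39) had an unadjusted p under 0.05 (edgeR adjusted p = 0.978 for both). In Lira against NGT, 7 were higher and 3 lower (median 0.10). Without T1D mouse 1 the first comparison had 4 higher and 6 lower (median -0.11) and the second 6 and 4 (median 0.19), and without mouse 1 of both NGT and T1D the first had 7 higher and 3 lower (median 0.30). Mmp14 stood at 139 CPM in T1D mouse 1 and at 16 to 41.9 CPM in the other 8 libraries, and Mmp13 at 188 CPM there against 0 to 82.8 CPM.

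Genes of other cell types were described in the same way, and none of those tested had an adjusted p under 0.05 in edgeR in any of the 3 comparisons. The 15 osteoblast lineage genes were all tested, and 15 of 15 were higher in T1D than in NGT (median 0.93) and 15 of 15 lower in Lira than in T1D (median -1.11), with 1 (Spp1) and 0 at an unadjusted p under 0.05. In Lira against NGT, 7 were higher and 8 lower (median -0.14). Their summed level was 2222, 652 and 2083 CPM in NGT, 7472, 1488 and 1529 CPM in T1D and 1559, 933 and 1912 CPM in Lira. T1D mouse 1 alone lay above NGT mice 1 and 3, and without it 6 of 15 were higher and 9 lower in T1D than in NGT (median -0.35; without mouse 1 of both NGT and T1D, 9 of 14 were higher, median 0.05) and 9 were higher and 6 lower in Lira than in T1D (median 0.17). Col1a1, the main collagen of bone, was at 719, 89.8 and 739 CPM in NGT, 3208, 333 and 331 CPM in T1D and 412, 193 and 618 CPM in Lira, and differed by 1.32 (SE 1.04) between T1D and NGT. Sparc and Col1a2 differed by 0.68 (SE 0.59) and 1.22 (SE 0.86), and Spp1 by 2.61 (SE 1.13, edgeR adjusted p = 0.977). Spp1, like Mepe, was highest in T1D mouse 3 and lowest in NGT mouse 2. The part of the bone content of a sample in the differences of Mepe and Sost was not tested.

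Of 9 osteoclast genes 8 were tested, and 6 were higher in T1D than in NGT (median 1.84), 1 of them, Ctsk, with an unadjusted p under 0.05 (2.30, SE 0.96, edgeR adjusted p = 0.977). Their summed level was 87.9 to 199 CPM in NGT, 155 to 416 CPM in T1D and 114 to 327 CPM in Lira. Nfatc1, Mmp9 and Acp5, the most abundant, differed by -0.09 (SE 0.17), 1.47 (SE 1.29) and 2.14 (SE 1.06). In Lira against T1D 7 of 8 were lower (median -1.14), and in Lira against NGT 7 of 8 were higher (median 0.64). Without T1D mouse 1, 5 of 7 were lower in Lira than in T1D (median -0.60), and without Lira mouse 3, 5 of 7 were higher in Lira than in NGT (median 0.08). All 6 of the 8 chondrocyte genes that were tested were higher in T1D than in NGT (median 1.49), with Comp at 1.40 (SE 1.17), Col2a1 at 1.58 (SE 1.5) and Sox9 at 0.81 (SE 0.98). The sum over all 8 was 66.3, 11.1 and 14.8 CPM in NGT, 193, 37.5 and 17.9 CPM in T1D and 88.8, 13.4 and 43.5 CPM in Lira. T1D mouse 1 was again the highest, and without it 5 genes were tested, of which 0 were higher and 5 lower in T1D than in NGT (median -1.10). Without mouse 1 of both NGT and T1D, 3 were tested and 2 were higher (median 1.07).

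Pdpn and Ptprz1 are not particular to osteocytes, so markers of other cells that carry them were summed. The 6 lymphatic endothelial genes took 39.1 to 83.2 CPM in NGT, 71.5 to 164 CPM in T1D and 55.5 to 83.2 CPM in Lira, and 6 of 6 were higher in T1D (median 0.90). T1D mouse 1, the library highest for Pdpn, was the highest there, with Ccl21a at 67.5 CPM against 3.48 to 21.5 CPM in the others. Without it 6 of 6 were higher in T1D (median 0.61), and without mouse 1 of both NGT and T1D, 5 of 6 (median 1.15). In Lira against T1D 6 of 6 were lower (median -0.42), and 4 of 6 without T1D mouse 1 (median -0.21). Lyve1 and Flt4 differed by 1.15 (SE 0.57) and 0.23 (SE 0.30) between T1D and NGT. The 7 stromal fibroblast genes took 539 to 1097 CPM in NGT, 824 to 1947 CPM in T1D and 644 to 755 CPM in Lira, again highest in T1D mouse 1, with 7 of 7 higher in T1D (median 0.54) and 7 of 7 lower in Lira than in T1D (median -0.88). Without T1D mouse 1, 5 were higher and 2 lower in T1D (median 0.08) and 7 of 7 lower in Lira (median -0.28), and without mouse 1 of both NGT and T1D, 6 were higher in T1D and 1 lower (median 0.49). Dcn, Cxcl12 and Postn, the most abundant of them, differed by 0.76 (SE 0.42), 0.34 (SE 0.27) and 0.29 (SE 0.77) between T1D and NGT, and Lum and Pdgfra had an unadjusted p under 0.05 in Lira against T1D (-1.97, SE 0.72, and -0.74, SE 0.32, edgeR adjusted p = 0.978 for both). None of the lymphatic or stromal markers was at 0 in any library, and their part in the level of Pdpn was not tested.

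The 8 Schwann and glia genes took 56.1 to 287 CPM in NGT, 128 to 1037 CPM in T1D and 69.7 to 135 CPM in Lira. All 8 were higher in T1D than in NGT (median 1.57), with Pmp22 (1.60, SE 0.63) and S100b (1.57, SE 0.52) at an unadjusted p under 0.05, and all 8 were lower in Lira than in T1D (median -1.68), with Pmp22 and S100b among those at an unadjusted p under 0.05. Mbp, an abundant myelin gene, differed by 1.57 (SE 0.97) between T1D and NGT. The library highest for this list was T1D mouse 2, which had 1.64 CPM of Ptprz1 against 4.62 CPM in T1D mouse 1. The part of glial content in the level of Ptprz1 was not tested. In 3 of 3 same-numbered pairs the sum was higher in T1D than in NGT for the other osteocyte, osteoclast, chondrocyte, lymphatic, stromal and glial lists, and for the osteoblast lineage in 2 of 3. The erythroid, neutrophil and B cell sums were higher in T1D in 2 of 3 pairs, and the phosphate and FGF23 sum in 1. The Sost and Wnt sum and the muscle sum were higher in 0 of 3. On the mean log2(CPM + 1) of the tested genes the chondrocyte list was higher in 2 of 3 pairs. There the phosphate and FGF23 list was higher in 3, and the Sost and Wnt and B cell lists in 1.

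Of the remaining tissue lists, the 10 skeletal muscle genes took 8.38% to 22.9% of a library, with 1 higher and 9 lower in T1D than in NGT (median -0.13), with 8 higher and 2 lower without T1D mouse 1 (median 0.18), and with 1 and 9 again without mouse 1 of both NGT and T1D (median -0.13). The lowest shares were those of T1D mouse 1 (8.38%), NGT mouse 1 (11.1%) and Lira mouse 3 (11.8%). Myh4, Atp2a1 and Acta1 differed by -0.23 (SE 0.68), -0.09 (SE 0.55) and -0.10 (SE 0.47) between T1D and NGT, and Myh2 was the muscle gene with an unadjusted p under 0.05 (-1.42, SE 0.53, edgeR adjusted p = 0.977). The 9 tested erythroid genes were all higher in T1D than in NGT (median 0.98). The sum over all 10 erythroid genes was 390 to 6607 CPM in NGT, 493 to 19029 CPM in T1D and 830 to 29102 CPM in Lira. The globin genes among them are near-identical copies, between which reads may have been split. Of 9 neutrophil genes, 4 were higher and 5 lower (median -0.04), with Ngp, S100a9 and S100a8 at 0.10 (SE 1.81), -0.10 (SE 1.78) and -0.12 (SE 1.78), and of 9 B cell genes 1 was higher and 8 lower (median -0.33), with Ebf1 and Cd79a at 0.58 (SE 0.39) and -0.26 (SE 1.35). Without T1D mouse 1 alone, 9 of 9 erythroid (median 1.44), 1 of 9 neutrophil (median -0.35) and 1 of 7 B cell genes (median -0.37) were higher. Without mouse 1 of both NGT and T1D, 8 of 8 erythroid (median 2.75), 9 of 9 neutrophil (median 1.88) and 6 of 7 B cell genes (median 0.82) were higher in T1D than in NGT. In Lira, 8 of 9 erythroid genes were higher than in T1D (median 0.76) and than in NGT (median 1.90), 9 of 9 neutrophil genes in both comparisons (median 1.09 each), and 8 and 9 of 9 B cell genes (median 1.63 and 1.23). These counts turned without Lira mouse 3, when against T1D 0 of 8 erythroid (median -1.38), 0 of 9 neutrophil (median -1.14) and 0 of 7 B cell genes (median -0.32) were higher, and against NGT 1 of 8, 0 of 9 and 1 of 7 (median -0.21, -1.09 and -0.59). NGT mouse 2, lowest for the osteocyte genes, was also lowest for neutrophil genes, at 8.43 CPM against 55.7 to 5370 CPM elsewhere.

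**Figure D4:**
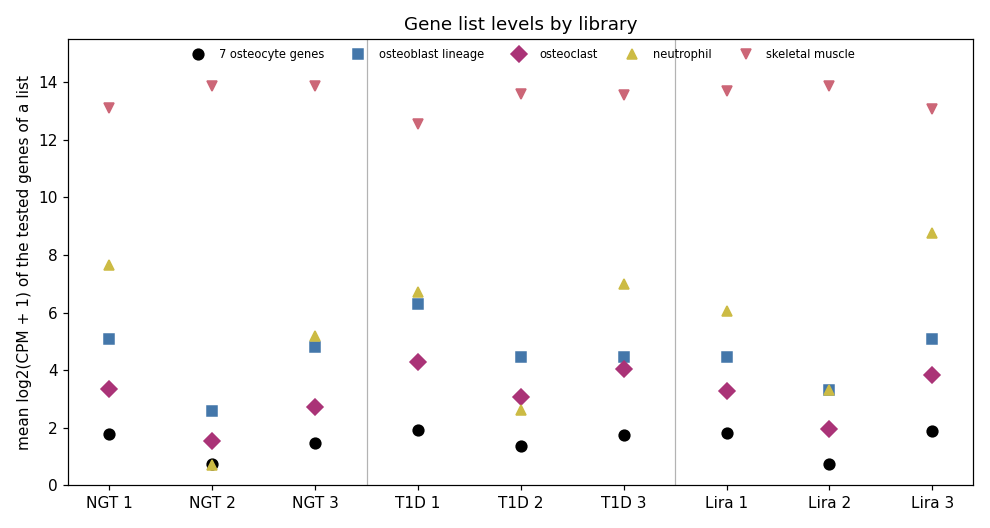
Mean log2(CPM + 1) of the tested genes of 5 lists (y axis) in each of the 9 libraries (x axis), grouped by NGT, T1D and Lira. NGT mouse 2 and Lira mouse 2 have the lowest osteocyte (0.741 and 0.755), osteoblast lineage (2.57 and 3.30) and osteoclast (1.54 and 1.97) levels, while the skeletal muscle level stays between 12.5 and 13.9 throughout.

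The genes whose pattern over the 9 libraries was most like that of the members were sought among 13123 tested genes with a mean of at least 1 CPM, by Pearson's r of log2(CPM + 1) with the mean z score of the 7 members. The closest were Fgfr2 (0.974), Acp5 (0.969), Atp6v0d2 (0.966), Pctp (0.960), Mmp9 (0.956), Ccr1 (0.955), Jchain (0.951) and Nop58 (0.951), and 115 genes had r over 0.9. Fgfr2 ran from 0.696 CPM in NGT mouse 2 to 12.5 CPM in T1D mouse 3, and Acp5, the tartrate-resistant acid phosphatase of osteoclasts, from 3.02 to 110 CPM. Of these 8 genes, Acp5, Atp6v0d2 and Mmp9 are on the osteoclast list. With Sost alone, the closest were Sox12 (0.957), Vps33b (0.955) and Tfpi (0.950), and 23 genes had r over 0.9. Within each of these 9 libraries all genes share the depth and the tissue composition, and the coefficients carry no test.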

How the data were processed

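RNA from 9 mouse tibiae (3 each of NGT, T1D and Lira) was sequenced by the authors after oligo(dT) selection, as 1 library per mouse. The authors deposited expected counts per gene, not normalized, of which 30.2% are not whole numbers and which were rounded here. The authors also deposited FPKM, scaled for gene length and library total, which was used for the order of levels and for 1 alternative. The submitters' processing notes name the mouse build mm9. The aligner, the counting tool and the annotation are not given in the sources used here, and neither is strand use. All sample columns were mapped by the labels, with 0 left over.

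The 7 members and all gene lists were chosen with earlier results of these data known. Genes with 10 or more counts in 3 or more libraries (13960 of 18272) were tested with edgeR 4.0.16 in R 4.3.3 (TMM, glmQLFit and glmQLFTest, 3 group means, all 9 libraries). A gene was called at a fold change over 2 with a p-value under 0.05 after Benjamini-Hochberg adjustment. Standard errors came from the F statistic. CPM used TMM-scaled totals. Single values were compared by two-sided exact permutation over mice (3 against 3 give no p under 0.1), with Python 3.11.15 and SciPy 1.17.1. The alternatives were DESeq2 1.42.0, limma 3.58.1 on log2(CPM + 1), library size in place of TMM, no filter, only the compared groups, the replicate number as a block, other pseudocounts or FPKM for the ratios, and leaving out each mouse. After seeing the data, DESeq2 without independent filtering, the ratios within same-numbered mice, the block with only the compared groups, the removal of T1D mouse 1 with Lira mouse 3 (for the lists, of each alone and of T1D mouse 1 with NGT mouse 1), counts of same-numbered pairs, the test of the order of levels and the promoter motifs were added. The edgeR step was tested on simulated data.

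Named genes were every member, the 3 most abundant genes of each list, list genes with an unadjusted p under 0.05, Col1a1, and the 8 and 3 genes most correlated with the members and with Sost. Some list genes that this rule selects are not reported here. The SIBLING neighbors Dspp and Ibsp, their flanking genes, Bglap, Sp7 and Dlx3 were chosen after their values were seen. Deviations from group means (log2 CPM, prior count 2) of same-numbered NGT and T1D mice correlated at 0.583, 0.647 and 0.283, each over 0.1, and the numbers were taken to pair these mice. Those of T1D and Lira (-0.243, 0.615 and 0.271) and of NGT and Lira (-0.173, 0.727 and 0.0125) were not. No source says how the numbers were given, so the pairing rests on these data alone. In the same measure unlike-numbered NGT and T1D mice ran from -0.697 to 0.0667, but NGT mouse 1 with Lira mouse 3 reached 0.780. Intervals and limits from counts cover counting error only.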

Additional observations from a re-analysis of the deposited data

How the results depend on the processing

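No member was called under any alternative that gave it an adjusted p, in any of the 3 comparisons. DESeq2 gave none for the 7 members in T1D against NGT, and without its filtering, added after seeing the data, it called 0 of 7. Among all genes, DESeq2 called 1 gene in Lira against T1D with and without that filtering, where edgeR called 0. Under the alternatives set at the start 399 values kept their direction and side of the threshold, 36 reversed and 1 moved, and under the added ones 51 kept them, 5 reversed and 1 moved. Sost, Mepe and Fgf23 rest on low counts and had no value, leaving 4 members, with only the compared groups in T1D against NGT (with or without the block) and Lira against NGT, and when T1D mouse 3, Lira mouse 3, or T1D mouse 1 together with Lira mouse 3 were left out. Without T1D mouse 2, Sost and Mepe had none (5 tested), and without Lira mouse 1, Fgf23 had none (6 tested).

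With the replicate number as a block, 0 members were called and no call changed. T1D over NGT was then 2.70 for Mepe (SE 0.96) and 1.19 for Pdpn (SE 0.45), with an adjusted p of 0.864 for both in edgeR. The number of genes at an unadjusted p under 0.05 was 752 with the block and 552 without. With the block and only the compared groups that count was 1931, with a lowest adjusted p of 0.230.

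Directions turned for small differences. Lira over NGT for Dmp1 was -0.039 with library size in place of TMM, -0.0031 with only the compared groups, -0.087 with limma, -0.12 with the block and -0.48 without T1D mouse 1 and Lira mouse 3, and for Pdpn it was 0.035 with the block and 0.043 without those mice. Without those mice T1D over NGT was -0.36 for Phex and -0.46 for Ptprz1, and Lira over T1D was 0.42 for Phex. The cause was not tested. Leaving out single mice gave log2 fold changes of T1D over NGT from -0.33 to 0.76 for Phex, -0.0061 to 1.04 for Fgf23 and -0.43 to 0.71 for Ptprz1, of Lira over T1D from -0.74 to 0.11 for Mepe, -0.55 to 0.57 for Phex and -1.15 to 0.063 for Ptprz1, and of Lira over NGT from -0.53 to 0.57 for Dmp1, -0.31 to 0.74 for Phex, -0.23 to 0.14 for Pdpn and -1.05 to 0.25 for Ptprz1. In limma T1D over NGT was 0.55 for Sost and 0.76 for Mepe, on a scale with 1 CPM added. Where they passed the filter, Sost kept a positive value in T1D over NGT, from 1.14 without NGT mouse 2 to 2.76 without NGT mouse 1, and Mepe one from 2.02 to 3.03. Each of these ranges holds 4 fits, all of which keep T1D mice 2 and 3. Without either of those mice both genes fell below the filter, so the kept sign is tied to the filter. Differences of the log2 ratio to Dmp1 ranged from -0.14 to 1.08 for Fgf23 in T1D against NGT, from -1.23 to 0.040 for Mepe, -0.80 to 0.016 for Phex and -1.56 to 0.28 for Ptprz1 in Lira against T1D, and from -0.48 to 1.15 for Sost, -0.22 to 0.68 for Phex, -1.22 to 1.12 for Pdpn and -1.13 to 0.71 for Ptprz1 in Lira against NGT.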
